A study of Mus musculus with 5 samples.

Results

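Lysosomal protease control was followed in MC38 tumors through 10 genes of the 33696 counted: the cathepsins Ctsb, Ctsc, Ctsd, Ctsh, Ctsk, Ctsl, Ctss, and Ctsz, the asparaginyl endopeptidase gene Lgmn, and the cystatin C gene Cst3. They were taken by name, and UMIs of each were found in both reactions. Tumors came from male wild-type C57BL/6J mice aged 8 to 10 weeks that carried subcutaneous MC38, a mouse colon carcinoma line. The mice received on days 3, 6, and 9 either isotype antibody or checkpoint inhibition (CPI, antibodies to CTLA4 and PD-1), and on day 12 either DPBS vehicle or the JAK1 inhibitor ABT-317 at 20 mg/kg, with harvest on day 15. The 4 groups are called isotype, CPI, CPI + ABT-317, and isotype + ABT-317, and the first 2 had vehicle on day 12. Live CD45+ and CD45- cells were sorted, mixed 1 to 1, and run as 2 reactions of 5′ single-cell RNA-Seq, each of which holds all 4 groups under 4 antibody hashtags. Each treatment had a different hashtag in each reaction. The study's methods say that hashtags marked samples as well as treatments and that several mice per group were used, but the key to the hashtags gives treatment and reaction and not the mouse, and no source used here says if the same mice are in both reactions, so every p-value measures the spread between 2 reactions, which may be technical.

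Cathepsins are proteases that lysosomes and late endosomes use to degrade protein. Ctsb, Ctsc, Ctsh, Ctsk, Ctsl, Ctss, and Ctsz encode papain-like cysteine proteases, Ctsd encodes an aspartic protease, and Lgmn encodes legumain, a cysteine protease that cuts after asparagine and can process other cathepsins. In antigen-presenting cells these enzymes trim the invariant chain of MHC class II and the antigens it presents, with cathepsin S best known for the invariant chain, and Cst3 encodes a secreted inhibitor of the cysteine cathepsins.

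Upstream sequence is shown for the neighbors Ctsk and Ctss, since they lie side by side on chromosome 3 and were read in different cell classes, and around the E-boxes of 3 members. In GENCODE M21 on GRCm38, Ctsk spans chr3:95499256-95509362 and Ctss spans chr3:95526786-95556403, both on the plus strand with 17423 bases between them. The 250 bases before the RefSeq start (GRCm38.p6) lie outside either gene. Capitals mark the core of the interferon-stimulated element, a pair of GAAA with any 2 bases between, at bases 21 to 12 before the Ctss start. The Ctsk window had no match to any motif searched.
Ctsk, chr3:95498960-95499209, plus strand: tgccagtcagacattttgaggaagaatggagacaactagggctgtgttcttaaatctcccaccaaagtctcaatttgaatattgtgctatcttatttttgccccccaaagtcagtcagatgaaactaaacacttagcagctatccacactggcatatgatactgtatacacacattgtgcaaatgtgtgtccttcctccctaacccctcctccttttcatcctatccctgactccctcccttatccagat
Ctss, chr3:95526536-95526785, plus strand: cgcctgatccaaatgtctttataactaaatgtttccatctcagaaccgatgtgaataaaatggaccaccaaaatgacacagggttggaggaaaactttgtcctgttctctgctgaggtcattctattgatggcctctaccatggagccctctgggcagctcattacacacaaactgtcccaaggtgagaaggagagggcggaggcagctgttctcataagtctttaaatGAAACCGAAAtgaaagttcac

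The E-box CACGTG is the core of the element bound by TFEB and its relatives, which are known regulators of lysosomal genes. It was found upstream of Ctsd, Ctsl, and Lgmn, and its capitals mark it in the 30 bases around each match. In GENCODE M21 the nearer Ctsd window lies in a noncoding part of an exon and the farther one outside the gene, the Ctsl window in a noncoding part of an exon, and the Lgmn window in an intron.
Ctsd, 98 bases before the start, chr7:142387908-142387937, minus strand: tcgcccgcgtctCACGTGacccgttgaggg
Ctsd, 245 bases before the start, chr7:142388048-142388077, minus strand: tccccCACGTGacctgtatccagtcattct
Ctsl, 236 bases before the start, chr13:64370739-64370768, minus strand: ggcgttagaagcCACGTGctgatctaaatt
Lgmn, 49 bases before the start of its second window, chr12:102439124-102439153, minus strand: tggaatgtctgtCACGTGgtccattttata
Motifs were searched on both strands in the 250 upstream bases of 32851 RefSeq promoters, of which 8 of the 10 members have at least 1 and Ctsb and Ctsh none. CACGTG was in 6.02% of these promoters and the interferon-stimulated core in 2.98%. The longer TCACGTGA, which contains CACGTG and is in 0.785% of promoters, was found in Ctsd only. Ctsc held AGGAAGT, a PU.1 core found in 7.69% of promoters, and TTCNNNGAA, the GAS element found in 7.02%. A match describes letters and is no evidence of binding.

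The reactions held 37774 and 27582 barcodes with 435031691 and 377184807 gene UMIs, and 33762 and 23332 barcodes passed the filters. Exactly 1 treatment hashtag was present in 18040 and 14236 of these, several in 13201 and 6885, and 1416 barcode sequences occurred in both reactions. Before the filters the isotype hashtag was present in 25806 and 15983 barcodes, and no other in more than 10739 and 8555. Whether part of the isotype signal is background was not tested. Classes were defined by UMIs of marker genes that include no member, and 12 had at least 20 cells in both reactions, among them 5565 and 5439 C1q macrophages, 43 and 21 CCR7+ mreg DCs, and 32 and 30 cDC2s. A list of keratins and Epcam for epithelial tumor cells was met by 0 barcodes in either reaction, so 12706 and 9210 deep barcodes without Ptprc, the gene for CD45, were left as an unnamed class, the largest of the 12. Levels below are counts per 1000000 gene UMIs (CPM) over all cells of a class in a reaction, with reaction 1 given first. As a measure of RNA carried between droplets, the summed C1qa, C1qb, and C1qc level relative to macrophages was 4.77% and 3.25% in fibroblasts, 5.74% and 3.30% in T cells, and 0.656% and 0.279% in the unnamed class. The unnamed class was also defined by a low share of C1q macrophage markers, so this measure was bounded there in advance. Other classes had a looser limit.

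C1q macrophages had the highest mean level of 7 members: Ctsb, Ctsc, Ctsd, Ctsh, Ctss, Ctsz, and Lgmn. Of 120 class levels, 48 moved by more than the spread between reactions with fewer than 2500 genes per barcode and 53 with classes by nearest profile, and 32 of 100 did with only 1 hashtag. Ctss was at 2023 and 2181 CPM there (mean 2102 ± 112, SD, n = 2), followed by Ly6c2 monocytes at 727 and 1819 and cDC2s at 982 and 1255. The macrophage range stood apart from all others, and the ranges of monocytes and cDC2s overlapped. Fibroblasts held 105 ± 36.8 CPM of Ctss and the unnamed class 19.5 and 8.9. Those low levels were 1.36 and 1.11 times, and 1.47 and 1.46 times, what macrophage RNA carried at the C1q share would give, and are read as background or little above it.

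Ctsc, which encodes the dipeptidyl peptidase that activates granule serine proteases, was at 943 and 1047 CPM in C1q macrophages and at 10.2 and 4.3 CPM in the unnamed class. Its monocyte values, with a mean of 727 ± 472 CPM, were too far apart to place below the macrophages. In fibroblasts Ctsc was 1.54 and 1.49 times the carried level. Lgmn stood at 958 and 1045 CPM in C1q macrophages. The cDC1s came next for Lgmn, but with 888 CPM in reaction 1 and 121 in reaction 2 their place in the order was not resolved. Their own markers summed to 1710 and 1700 CPM, but the marker Xcr1 was at 10.33 and 143.5. C1q macrophage markers summed to 1157 and 442 CPM in them. Whether the cDC1 class held like cells in both reactions was not tested. With classes by nearest profile the cDC1 class was highest for Lgmn and Ctsc, with means of 1228 and 1244 CPM. That class held 1055 barcodes against 82 by markers, and only 47 of the 82 were in it, so it is largely a different set of barcodes.

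Ctsb, a broadly expressed endopeptidase, was at 1607 and 1785 CPM in C1q macrophages (1696 ± 125), 967 and 1329 in Arg1 myeloid cells, and 782 and 938 in fibroblasts. These 3 ranges did not overlap, while the neutrophils, monocytes, endothelial cells, and cDC1s that followed could not be ordered. The aspartic protease gene Ctsd was at 646 and 581 CPM in C1q macrophages and at 493 and 631 in Arg1 myeloid cells, which overlapped. Arg1 myeloid cells were the highest class for Ctsd with fewer than 2500 genes (879 CPM) or only 1 hashtag (814). Both stood above the neutrophils (346 ± 148 CPM), and mreg DCs had the lowest mean, 53.2 ± 36.6 CPM, in a range that overlapped that of cDC2s (86.4 ± 46.1). These low levels rest on 13 and 3 UMIs in mreg DCs and 12 and 6 in cDC2s. A single barcode held 50.0% of them in each cDC2 sum and 66.7% in the mreg DCs of reaction 2. Ctsb and Ctsd in the unnamed class, at 211 ± 26.3 and 120 ± 6.94 CPM, were 18.2 times or more what macrophage RNA carried at its C1q share would bring.

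Ctsz, which encodes a carboxypeptidase, had a narrower spread over classes, from 908 ± 109 CPM in C1q macrophages to 150 ± 0.142 in endothelial cells. The aminopeptidase gene Ctsh was at 404 and 503 CPM in C1q macrophages, 367 and 452 in fibroblasts, and 327 and 394 in cDC2s. Each of these ranges overlapped the next, so the order at the top of Ctsh was not resolved, and fibroblasts led with fewer than 2500 genes (507 CPM) or only 1 hashtag (487).

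Ctsl, Ctsk, and Cst3 were led by other classes. Ctsl, a broadly acting endopeptidase, was at 1759 and 2023 CPM in the unnamed class, 2405 and 1348 in Arg1 myeloid cells, and 1299 and 1408 in fibroblasts, and only 548 and 557 in C1q macrophages. The first 3 overlapped in sequence, and the macrophages stood below all of them. The part of RNA carried from other classes in the macrophage Ctsl was not tested. H19, at 281.1 and 296.7 CPM in the unnamed class and 301.4 and 323.9 in fibroblasts, was at 56.41 and 34.2 in C1q macrophages. Ctsl in mreg DCs is not a class level, because 1 barcode held 95.9% of its UMIs in reaction 2, and a single barcode likewise held 85.7% in the cDC1s and 71.0% in the cDC2s of that reaction.

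Ctsk, the collagen-degrading cathepsin known from osteoclasts, was at 1057 and 1295 CPM in fibroblasts, 95.6 and 95.4 in pericytes, and 6.1 and 3.1 in C1q macrophages. In the macrophages of reaction 1 a single barcode held 45.1% of the Ctsk UMIs. Apart from neutrophils, all classes lay below the fibroblasts. The neutrophil sum of reaction 2 showed 2755 CPM against 7.52 in reaction 1, and all 104 of its Ctsk UMIs came from 1 barcode. Monocytes had 0 Ctsk UMIs in 149900 and 85758 gene UMIs.

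Cst3 was led by the dendritic cells, with 10650 and 23710 CPM in cDC1s, 10780 and 15200 in mreg DCs, and 11480 and 13930 in cDC2s. A UMI of Cst3 was in 70.5% and 100.0% of the cDC1s. The dendritic ranges overlapped each other and stood above the monocytes (1621 and 5667) and C1q macrophages (2587 and 2901). The unnamed class had the lowest mean of Cst3, at 642 and 682 CPM, and overlapped T cells. It was still 37.8 and 84.4 times the carried level.

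**Figure D1:**
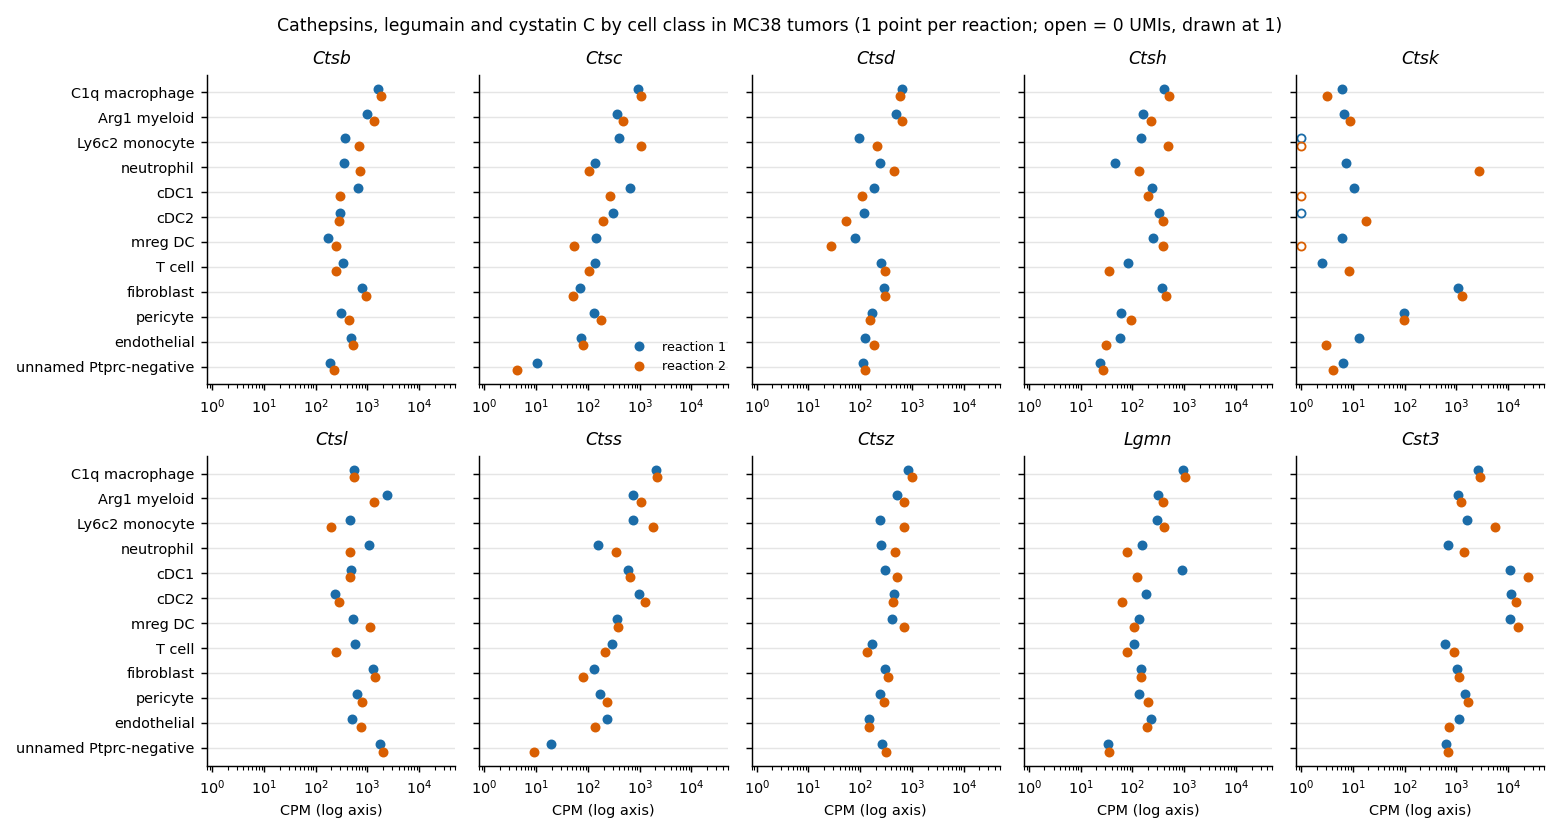
Levels of the 10 members in 12 cell classes, in CPM on a log axis, with 1 point per reaction (blue, reaction 1; orange, reaction 2) and open points for 0 UMIs. Ctss and Ctsc fall from 2102 and 995 CPM in C1q macrophages to 14.2 and 7.24 in the unnamed class. Ctsk is high in fibroblasts, and its high neutrophil point in reaction 2 comes from 1 barcode. Cst3 peaks in the 3 dendritic classes.

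Levels were compared between classes with edgeR's quasi-likelihood test on the 24 class sums, with adjusted p under 0.05 over 9987 genes as the call. Treatments are mixed in these sums and differ between classes, since C1q macrophages with 1 hashtag were mostly isotype and fibroblasts mostly CPI, so class and treatment cannot be fully told apart here. Against Ly6c2 monocytes, 8.4% of genes were called, and 4 members were higher in C1q macrophages: Ctsd by 2.51 ± 0.39 (log2, SE), Ctsb by 2.10, Lgmn by 1.93, and Ctsz by 1.39. No fold is given for Ctsk, which monocytes had at 0 UMIs. Without the monocyte sum of reaction 1 none of the 4 passed, with Ctsd at 1.80 (adjusted p = 0.0761), Ctsb at 1.58, Lgmn at 1.55, and Ctsz at 0.66. Without the macrophage sum of reaction 2, Lgmn and Ctsz missed the threshold at 1.71 and 1.12. Ctsz was also not called by DESeq2 (1.16) or with upper-quartile scaling (1.26). With reaction as a block, when 12.2% of genes were called, Ctsh (1.06) and Ctss (1.12) were called too, each at an adjusted p of 0.0492.

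Against Arg1 myeloid cells, where 10.9% of genes were called, C1q macrophages were higher for Lgmn (1.65 ± 0.41, adjusted p = 0.00789), Cst3 (1.39), Ctss (1.36), Ctsc (1.35), and Ctsh (1.35) and lower for Ctsl (−1.63 ± 0.38, adjusted p = 0.00536). Ctsd differed by 0.24 ± 0.30, with an adjusted p of 0.693. None of these calls held at fewer than 2500 genes per barcode, where the 5 positive differences were 0.53 to 0.98. Leaving out Arg1 reaction 1 also ended all 6, at 1.36, 1.17, 1.00, 1.05, 0.98, and −1.31. Without Arg1 reaction 2, Cst3, Ctss, Ctsc, and Ctsh missed at 1.43, 1.57, 1.48, and 1.57. Without macrophage reaction 1, Cst3 (1.41), Ctss (1.35), and Ctsc (1.36) missed, and without macrophage reaction 2, Lgmn (1.44), Cst3 (1.16), Ctss (1.16), Ctsc (1.13), and Ctsh (1.03) did. Cst3 alone was also lost, at 1.29 to 1.30, without either sum of the fibroblasts or of the unnamed class, and by DESeq2 it was 1.35 (adjusted p = 0.0577). Upper-quartile scaling ended the Cst3 (1.26) and Ctss (1.23) calls, and barcodes with only 1 hashtag those of Cst3 (1.21), Ctss (0.87), Ctsc (0.93), and Ctsh (0.92). With reaction as a block, when 17.1% of genes were called, Ctsz was called too (0.73, adjusted p = 0.037).

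The macrophage and fibroblast sums differed for 50.4% of genes. In C1q macrophages 7 members were higher, led by Ctss (4.38 ± 0.44, adjusted p = 1.77e-09), Ctsc (4.10), and Lgmn (2.81), with Ctsz (1.53), Cst3 (1.39), Ctsd (1.10), and Ctsb (1.02) behind. Ctsk (−7.97 ± 0.87, adjusted p = 1.21e-08) and Ctsl (−1.25 ± 0.38, adjusted p = 0.00625) were lower, and Ctsh at 0.19 ± 0.36 was the member not called. Without fibroblast reaction 1, Cst3 (1.14), Ctsd (0.93), and Ctsb (0.73) missed the threshold, as did Cst3 (1.14) and Ctsb (0.78) without macrophage reaction 2.

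cDC2s had more Cst3 than C1q macrophages (2.04 ± 0.44, adjusted p = 0.00481) and less Lgmn (−3.26 ± 0.53), Ctsd (−3.02 ± 0.43), Ctsb (−2.76 ± 0.39), and Ctsc (−2.16 ± 0.47), in a comparison with 3.94% of genes called. Ctss, which encodes the protease of invariant chain cleavage, differed by −1.08 ± 0.40 with an adjusted p of 0.179. The cDC2 sums held 12 and 6 UMIs of Ctsd, with 50.0% in 1 barcode in each. Without the cDC2 sum of reaction 2, Cst3 (1.82) and Ctsc (−1.93) were not called, and Cst3 was also not called without macrophage reaction 1 (1.97). Ctsz was called too with reaction as a block, when 4.59% of genes were, at −1.22 (adjusted p = 0.00887). Between mreg DCs and cDC2s, with 1.65% of genes called, Ctss was lower in mreg DCs by −1.69 ± 0.45 at an adjusted p of 0.0498, and without any of the 4 sums compared it was not called, at −1.48 to −1.91, nor with upper-quartile scaling (−1.82) or fewer than 2500 genes per barcode (−1.27).

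Against the unnamed Ptprc-negative class, a contrast added after the data were seen and with 62.8% of genes called, C1q macrophages were higher for 8 members. The differences ran from 7.32 ± 0.50 for Ctss and 7.21 ± 0.51 for Ctsc to 1.73 ± 0.35 for Ctsz. In the unnamed class Ctss was 1.47 and 1.46 times, and Ctsc 1.65 and 1.47 times, the carried level. That level was bounded in advance by how the class was defined, and the part of carried RNA in the size of those folds was not tested. Ctsl was lower in macrophages by −1.67 ± 0.38 (adjusted p = 0.000398), and Ctsk did not differ detectably (−0.08 ± 0.68).

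The genes most like each member were taken over the same 24 sums as the highest Pearson correlations of log2(CPM + 1) among 9026 genes. These are descriptions, since sums share reactions, carried RNA, and depth. Ctsc was nearest to the inhibitory Fc receptor gene Fcgr2b (r = 0.96), Ctss (0.94), and Ly86 (0.92), which encodes a toll-like receptor partner, and Ctss to Ly86 (0.96), Aif1, and Ucp2 (both 0.95). Ctsb was nearest to the apolipoprotein gene Apoe (0.84), Creg1 (0.83), and the progranulin gene Grn (0.82), and Lgmn to Apoe (0.88), Apobec1 (0.86), and Cx3cr1 (0.85). Ctsd had Hmox1, Spp1 (both 0.80), and Ctsb (0.79), of which Spp1 is a marker used for Arg1 myeloid cells, and Ctsz had Rnh1 (0.78), Ftl1 (0.77), and Npc2 (0.76). Ctsh was nearest to Dapk1 (0.86), Basp1 (0.83), and Metrnl (0.81), and Ctsk to Smim1 (0.87), Olfml2b (0.85), and Slit3 (0.84). Ctsl was nearest to Srm (0.92), Bsg (0.91), and Ppp1r14b (0.88), and its correlation with Ctss was −0.57. Cst3 was nearest to the MHC class II accessory genes H2-Ob and H2-DMb2 (0.93 and 0.92), the latter a marker used for cDC2s, and to Hepacam2 (0.90).

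In C1q macrophages the treatments were compared, with 3470 and 3490 isotype cells, 114 and 100 CPI cells, 226 and 294 CPI + ABT-317 cells, and 267 and 206 isotype + ABT-317 cells. The CPI sums were shallow, at 242574 and 220989 gene UMIs against 12610431 and 14725768 for isotype, and their median cell had 1811 and 1976 UMIs against 3244 and 3803. All contrasts with CPI use the same 2 CPI sums. Of the 10 members, 9 passed the filter on low counts. Ctsk did not, with 0 UMIs (which allows up to 15.2 CPM by its exact Poisson interval) and 45.3 CPM in CPI and 7.22 and 1.83 CPM in isotype.

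Ctsd rose most under CPI. Its level was 576 and 523 CPM in isotype, 1719 and 2091 in CPI, 715 and 773 in CPI + ABT-317, and 874 and 741 in isotype + ABT-317. Both CPI values stood above all 6 others, and both isotype values below them. CPI exceeded isotype by 1.78 ± 0.16 (3.43-fold, adjusted p = 1.28e-06), in a contrast with 14.8% of 8206 genes called, and CPI + ABT-317 was below CPI by −1.35 ± 0.16 (adjusted p = 4.31e-05), in a contrast with 10.2% called. These Ctsd calls held under every alternative run.

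Ctsb was at 1558 and 1717 CPM in isotype, 2750 and 3041 in CPI, 1614 and 2023 in CPI + ABT-317, and 1950 and 2081 in isotype + ABT-317. The CPI pair lay above the 6 other values, and CPI + ABT-317 overlapped both groups without CPI. It rose by 0.80 ± 0.16 under CPI (adjusted p = 0.00298) and was lower in CPI + ABT-317 than in CPI by −0.66 ± 0.16 (adjusted p = 0.0152). Without CPI reaction 2 the first difference was 0.64, with an adjusted p of 0.0759, and the second, at −0.49, was not called either. Nor was the second called without CPI + ABT-317 reaction 1 (−0.46), with treatment taken from the leading hashtag (−0.59, adjusted p = 0.0504), or in macrophages without a UMI of Mrc1 or Pf4 (−0.43).

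Ctsl read 475 and 429 CPM in isotype, 808 and 842 in CPI, 674 and 708 in CPI + ABT-317, and 479 and 444 in isotype + ABT-317. The groups that had received CPI lay above those that had not, with or without ABT-317. The differences were 0.85 ± 0.14 for CPI over isotype (adjusted p = 0.000722) and 0.61 ± 0.14 for CPI + ABT-317 over isotype + ABT-317 (adjusted p = 0.0339), the latter with 1.61% of genes called. The difference between the ABT-317 groups was 0.54 to 0.67 and not called without any of its 4 sums, nor by the leading hashtag (0.60), with classes by profile (0.56), or without a UMI of Mrc1 or Pf4 (0.42). Between CPI + ABT-317 and CPI, Ctsl differed by −0.25 ± 0.14, which was not called. Arg1 myeloid cells, with a mean of 1876 CPM of Ctsl against 552 in C1q macrophages, have 7 marker genes that summed within the macrophages to 1420 and 1582 CPM in isotype, 1818 and 1837 in CPI, 2921 and 2654 in CPI + ABT-317, and 2042 and 2300 in isotype + ABT-317, with 0 of the 7 at 0 in any sum. This list was higher in the groups given CPI than in those that were not, within vehicle and within ABT-317 alike, and its part in the Ctsl result was not tested. H19, which was higher in the unnamed class, was at 45.4 and 16.6 CPM in isotype macrophages and 57.7 and 18.1 in CPI. It was at 43.2 and 21.2 in CPI + ABT-317 and 45.4 and 76.7 in isotype + ABT-317. The part of RNA carried into macrophages was not tested either.

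Ctss was at 2024 and 2205 CPM in isotype, 2898 and 3539 in CPI, 2519 and 2686 in CPI + ABT-317, and 1899 and 1989 in isotype + ABT-317. As with Ctsl, both groups given CPI lay above both others. The rise under CPI was 0.59 ± 0.16 (adjusted p = 0.017). It was not called without CPI reaction 2 (0.34) or isotype reaction 1 (0.45), by the leading hashtag (0.45), or with no low-count filter (0.40), and with reaction as a block the difference between the ABT-317 groups was called too (0.44, adjusted p = 1.1e-06), as was that of CPI + ABT-317 against CPI (−0.30, adjusted p = 0.00149).

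Ctsc and Cst3 fell under CPI. Ctsc read 959 and 1045 CPM in isotype, 618 and 729 in CPI, 1239 and 1537 in CPI + ABT-317, and 992 and 1171 in isotype + ABT-317. The CPI pair was lowest and the CPI + ABT-317 pair highest, with no overlap on either side. CPI lay below isotype by −0.59 ± 0.18 (adjusted p = 0.0378) and CPI + ABT-317 above CPI by 1.05 ± 0.18 (adjusted p = 0.00158). Without CPI reaction 1, CPI reaction 2, or isotype reaction 2, the fall of Ctsc was −0.44, −0.81, and −0.52 and not called, and by DESeq2 it was −0.57 (adjusted p = 0.0503). In the fit with a block for reaction Ctsc was also called between the ABT-317 groups (0.38, adjusted p = 0.00014). Cst3 was at 2740 and 3039 CPM in isotype, 1921 and 2041 in CPI, 2464 and 2863 in CPI + ABT-317, and 2525 and 2899 in isotype + ABT-317, with the CPI pair below all others. The difference of −0.56 ± 0.16 (adjusted p = 0.0248) was not called without the same sums, at −0.48, −0.70, and −0.48, or by the leading hashtag (−0.42).

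Ctsh, Ctsz, and Lgmn were not called in any of the 4 contrasts. Lgmn was at 1004 and 1092 CPM in isotype and 936 and 846 in CPI (−0.26 ± 0.16, adjusted p = 0.315), Ctsz at 818 and 984 against 655 and 973 (−0.17 ± 0.20), and Ctsh at 414 and 522 against 396 and 462 (−0.15 ± 0.20). With reaction as a block, 21.9% of genes were called for CPI against isotype, 15.9% for CPI + ABT-317 against CPI, and 5.93% between the ABT-317 groups, and Lgmn was called in CPI against isotype (−0.25, adjusted p = 0.0469) and in CPI + ABT-317 against isotype + ABT-317 (−0.29, adjusted p = 0.00765). CPI + ABT-317 against CPI then also gave Cst3 (0.43, adjusted p = 9.16e-06) and Ctsz (0.31, adjusted p = 0.0216).

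**Figure D2:**
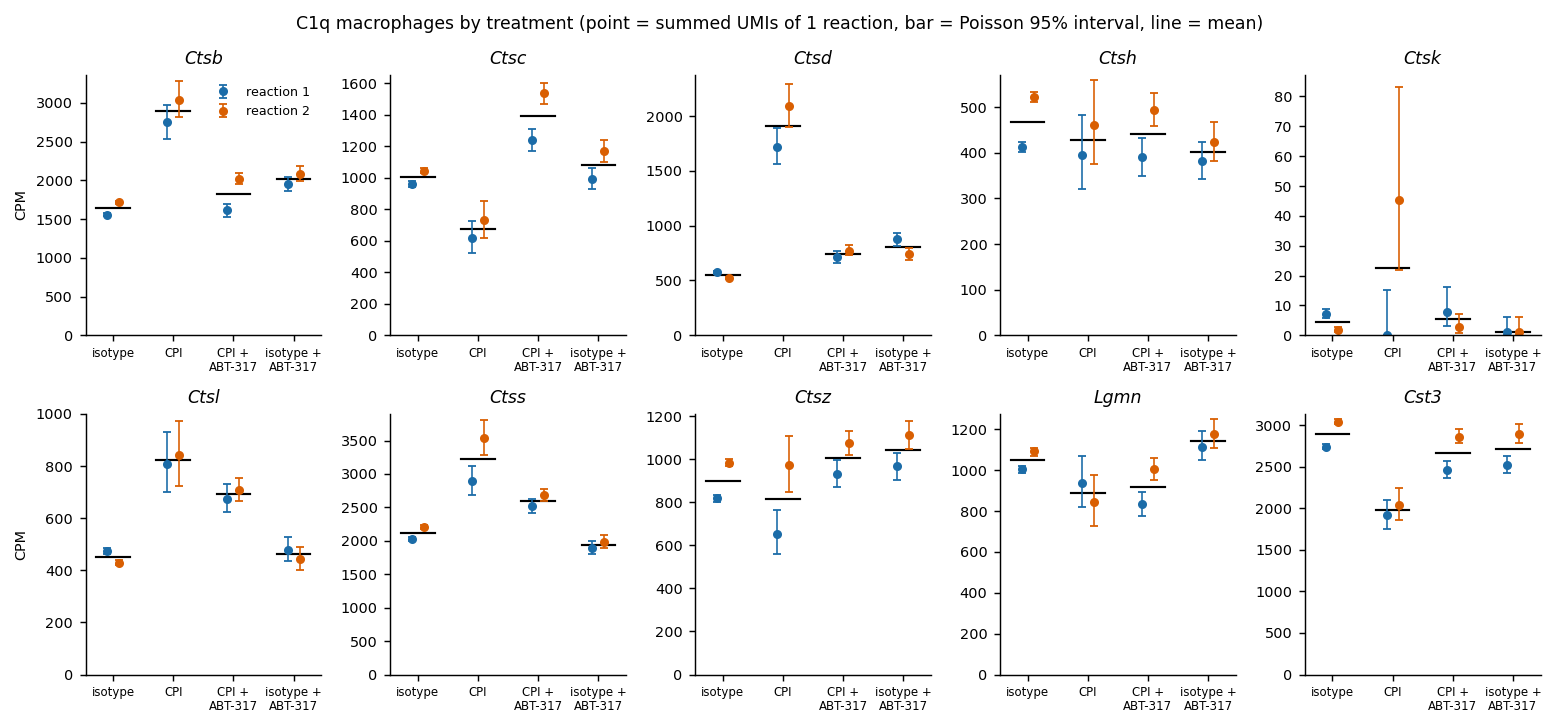
Levels of the 10 members in C1q macrophages by treatment, in CPM from 0, with 1 point per reaction, its exact Poisson 95% interval, which covers counting error only, and a line at the mean of the 2 reactions. Ctsd in CPI (1719 and 2091) stands above every other group, Ctsc in CPI (618 and 729) below, and the Ctsk points rest on 0 to 91 UMIs.

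ABT-317 without CPI moved no member past the threshold unless reaction was fitted as a block. Of 8206 genes, 0.0609% were called between isotype + ABT-317 and isotype, and 0 of the 9 members by edgeR or DESeq2. In either, 1 member had an unadjusted p under 0.05, and the share of all genes at that threshold is not reported here. By edgeR that member was Ctsd, at 0.52 ± 0.15 (unadjusted p = 0.00314, adjusted p = 0.697). With reaction as a block, when 1.3% of genes were called, Ctsd (0.52, adjusted p = 4.04e-06) and Ctsb (0.27, adjusted p = 0.0129) were called in this contrast.

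The effect of ABT-317 under CPI was set against its effect under isotype by an interaction term, added after the data were seen, with 5.01% of genes called. It was −1.87 ± 0.22 for Ctsd (adjusted p = 0.000102), −0.93 ± 0.23 for Ctsb (adjusted p = 0.0255), and 0.98 ± 0.25 for Ctsc (adjusted p = 0.0318). The Ctsd call held under every alternative run. Ctsb was not called without CPI + ABT-317 reaction 1 (−0.73), CPI reaction 2 (−0.76), isotype reaction 1 (−0.78), or either isotype + ABT-317 sum (−0.98 and −0.79), by the leading hashtag (−0.80), or without a UMI of Mrc1 or Pf4 (−0.68). Ctsc was not called without CPI + ABT-317 reaction 2 (0.82), either CPI sum (0.82 and 1.19), isotype + ABT-317 reaction 1 (0.86), or isotype reaction 2 (0.90), or by the leading hashtag (0.92). For the 6 other members tested it ran from −0.25 for Ctsl to 0.56 for Cst3, none called, and Cst3 was called with reaction as a block (adjusted p = 1.47e-05), when 11.4% of genes were.

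**Figure D3:**
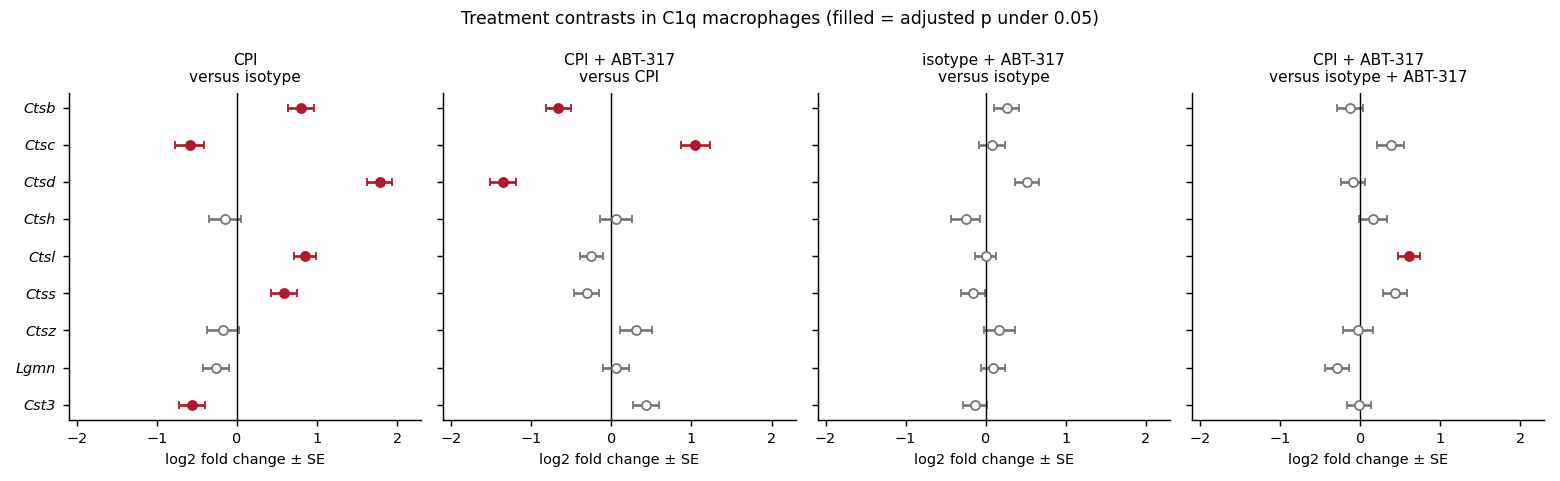
Log2 fold changes of the 9 tested members in C1q macrophages in 4 treatment contrasts, with bars of ±1 SE and filled points for an adjusted p under 0.05. Ctsd is at 1.78 for CPI versus isotype and −1.35 for CPI + ABT-317 versus CPI, and Ctsl is the member called between the groups with ABT-317 (0.61).

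Other genes were read within the C1q class under the same treatments. In isotype and CPI, Lyz2, the lysozyme gene of myeloid cells, was at 4252 and 5036 against 15090 and 19150 CPM, the mannose receptor gene Mrc1 at 97.4 and 91.9 against 635 and 443, and C1qa at 3893 and 4904 against 2634 and 2706. Of 6 reference genes of myeloid cells, 1 rose and 3 fell, where 14.8% of all genes were called. C1qa and Mrc1, and C1qc and Ms4a7 among the reference genes, are markers used to define the class. Their changes are thus not independent of how the cells were chosen. The summed fibroblast markers were at 306 and 154 CPM in isotype and 420 and 176 in CPI, with 0 of 7 and 1 and 2 of 7 genes at 0, and the neutrophil markers at 34.7 and 21.5 against 103 and 54.3, with 2 and 4 of 7 genes at 0 in CPI. T cell markers were at 3.89 and 2.65 CPM in isotype and 24.7 and 18.1 in CPI, with 7 of 10 genes at 0 in each CPI sum, and mreg DC markers at 26.6 and 17.1 against 78.3 and 45.3, with 4 and 3 of 7 at 0. Markers of cDC2s, a class high in Cst3, were at 227 and 249 CPM in isotype and 111 and 86.0 in CPI, with 2 and 4 of 6 at 0. The part of these in the results was not tested.

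These genes were also read in the groups given ABT-317. Lyz2 was at 6334 and 8520 CPM in CPI + ABT-317 and 5208 and 6527 in isotype + ABT-317 (−1.20 ± 0.20 for CPI + ABT-317 against CPI). Apoe was at 10900 and 12330 CPM in isotype, 15960 and 16160 in CPI, 6078 and 8104 in CPI + ABT-317, and 8849 and 9453 in isotype + ABT-317 (−1.17 ± 0.17 for CPI + ABT-317 against CPI). Both genes were highest in the CPI sums. Mrc1 stood at 81.9 and 101 CPM in CPI + ABT-317 and 138 and 147 in isotype + ABT-317, and C1qa at 3688 and 5040 and at 3939 and 4532. The chemokine gene Pf4 was at 485 and 437 CPM in isotype, 1406 and 1539 in CPI, 567 and 725 in CPI + ABT-317, and 524 and 557 in isotype + ABT-317. Pf4, like Mrc1, is a marker used to define the class. Macrophages with a UMI of Mrc1 or Pf4 made up 61.8% and 60.3% of cells in isotype, 87.7% and 78.0% in CPI, 57.1% and 66.7% in CPI + ABT-317, and 64.8% and 72.3% in isotype + ABT-317. Of the 6 reference genes, 3 rose and 2 fell in CPI + ABT-317 against CPI, where 10.2% of all genes were called, and 1 was higher and 1 lower in the interaction, where 5.01% were. The one lower in the interaction was Lyz2, at −1.51 ± 0.28, and it was not called without CPI reaction 2 (−1.22). In CPI + ABT-317 the summed markers were at 235 and 156 CPM for fibroblasts (0 of 7 genes at 0), 25.5 and 29.7 for neutrophils (4 and 3 of 7 at 0), 3.32 and 4.24 for T cells (7 and 5 of 10), 39.9 and 14.8 for mreg DCs (3 and 4 of 7), and 201 and 189 for cDC2s (2 and 3 of 6). The part of these genes and lists in the Ctsd, Ctsb, and Ctsc differences and interactions was not tested.

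In C1q macrophages with no UMI of Mrc1 or Pf4, an alternative added after the data were seen that splits cells on genes which themselves differed between the groups and kept 14 and 22 CPI cells, Ctsd was at 403 and 388 CPM in isotype and 1278 and 1646 in CPI, a difference of 1.80 ± 0.23 (adjusted p = 1.76e-06). In those cells Ctsl (0.56, adjusted p = 0.315) and Ctss (0.25, adjusted p = 0.547) were not called. The Ctsd call there does not stand as independent support.

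The rest of the lysosome was read from lists of genes named by function. Among 24 genes of the lysosomal membrane and proton pump, 10 rose and 0 fell in CPI against isotype, with a median of 0.55, beside 14.8% of all genes called and a median of −0.03 over all genes. Atp6v0d2, a pump subunit gene typical of osteoclasts and some macrophages, was at 57.7 and 76.9 CPM against 2.93 and 0.747 (5.19 ± 0.62). The pump subunit genes Atp6v1e1 (1.54 ± 0.17) and Atp6v1b2 (1.46 ± 0.19) rose too. In CPI + ABT-317 against CPI, 8 of the 24 fell and 0 rose, beside 10.2% of all genes called, among them Atp6v0d2 (−3.95 ± 0.71), the membrane glycoprotein gene Lamp1 (−1.23 ± 0.14), and Atp6v1b2 (−1.14 ± 0.20). Atp6v1b2 was not called there without CPI reaction 2 (−0.93). In macrophages without a UMI of Mrc1 or Pf4, Atp6v1e1 (1.11) and Atp6v1b2 (0.90) were not called for CPI against isotype, nor Lamp1 (−0.69) and Atp6v1b2 (−0.53) for CPI + ABT-317 against CPI.

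Of 30 other lysosomal hydrolases and their cofactors, 8 rose and 2 fell under CPI (median 0.35), beside 14.8% of all genes called and an all-gene median of −0.03. Psap, which encodes the saposins, rose from 1737 and 1747 to 4415 and 5036 CPM (1.42 ± 0.14), the phospholipase gene Pla2g15 by 1.31 ± 0.26, and the cholesterol transporter gene Npc1 by 1.28 ± 0.26. Without CPI reaction 2, Npc1 (1.05) and Pla2g15 (1.0) were not called, and Pla2g15 was also not called without a UMI of Mrc1 or Pf4 (1.12). Against CPI, CPI + ABT-317 had 2 of them higher and 8 lower, beside 10.2% of all genes, with Npc1 at −1.29 ± 0.28, Pla2g15 at −1.07 ± 0.28, and Psap at −0.92 ± 0.14. Here Npc1 was lost without CPI + ABT-317 reaction 2 (−1.11) or CPI reaction 2 (−1.04) and by the leading hashtag (−0.73), and Pla2g15 without the same sums (−0.91 and −0.76), with no low-count filter (−0.92), or without a UMI of Mrc1 or Pf4 (−0.75). The Psap calls in these 2 contrasts held under every alternative run. Of the 15 other cathepsin genes only Ctsa and Ctso could be tested, at −0.43 ± 0.19 and 0.18 ± 0.63 in CPI against isotype, neither called.

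Of 16 cystatin, stefin, and serpin genes, 14 were in the files and 3 were tested, and 2 of the 3 rose in CPI, beside 14.8% of all genes called: Serpinb6a from 53.6 and 42.0 to 280 and 235 CPM (2.42 ± 0.19), and Cstb, which encodes the cytosolic cathepsin inhibitor stefin B, from 608 and 595 to 1307 and 1688 CPM (1.30 ± 0.17). Both were lower in CPI + ABT-317 than in CPI, where 10.2% of all genes were called, by −1.72 ± 0.20 and −0.87 ± 0.17. Cst6, the third, was not called in either contrast (0.54 ± 0.65 and −1.03 ± 0.75). The lower Cstb was not called without CPI + ABT-317 reaction 1 (−0.69) or CPI reaction 2 (−0.57), nor the lower Serpinb6a without a UMI of Mrc1 or Pf4 (−1.51).

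Sorting receptors and regulators of lysosomal genes gave 3 rises and 2 falls among 12 tested (median 0.51), beside 14.8% of all genes called and an all-gene median of −0.03. The mannose 6-phosphate receptor gene Igf2r rose by 2.70 ± 0.54 and the MiT family genes Tfec and Mitf by 2.48 ± 0.50 and 1.48 ± 0.21, whereas Gnptab, needed to make the mannose 6-phosphate tag, fell by 1.42 on the log2 scale. In CPI + ABT-317 against CPI, 1 of the 12 was higher and 2 lower beside 10.2% of all genes called. The sign was opposite for Igf2r (−2.14 ± 0.59), Mitf (−1.10 ± 0.22), and Gnptab (1.58 ± 0.37). Both contrasts use the same CPI sums, which by itself favors opposite signs. In those shallow sums Igf2r was at 41.2 and 27.2 CPM and Gnptab at 24.7 and 18.1. Mitf was at 116 and 99.7 CPM in isotype and 400 and 208 in CPI, so the 2 CPI sums differed from each other. The related gene Tfeb was at 18.2 and 22.1 CPM in isotype and 24.7 and 31.7 in CPI. Tfe3 was at 24.7 and 29.3 against 33.0 and 49.8. The rises of Igf2r and Tfec and the fall of Gnptab were not called without CPI reaction 1 (2.40, 2.11, and −1.63), and Tfec was also lost without a UMI of Mrc1 or Pf4 (3.81). Gnptab was further lost without CPI reaction 2 (−1.32), by the leading hashtag (−0.73), and without a UMI of Mrc1 or Pf4 (−0.29). In CPI + ABT-317 against CPI, Igf2r was not called without any 1 of the 4 sums compared (−1.84 to −2.35) or by the leading hashtag (−1.24). Mitf was not called there without CPI + ABT-317 reaction 2 (−0.99) or CPI reaction 1 (−0.58), or without a UMI of Mrc1 or Pf4 (−1.35). Gnptab was not called without CPI + ABT-317 reaction 2 (1.43), CPI reaction 1 (1.80), or CPI reaction 2 (1.48), by the leading hashtag (0.73), or without a UMI of Mrc1 or Pf4 (0.71).

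The list of IFN-γ response and MHC class II genes, the pathway that a JAK1 inhibitor acts on, gave 5 rises and 1 fall among 14 in CPI against isotype (median 0.46), beside 14.8% of all genes called and an all-gene median of −0.03. Irf1 rose by 1.34 ± 0.21 and H2-Ab1 by 1.15 ± 0.17, and Cxcl10 fell by 1.26 on the log2 scale. Without CPI reaction 2 Irf1 was not called (0.89). In CPI + ABT-317 against CPI, 4 were higher and 0 lower, beside 10.2% of all genes called, with the chemokine genes Cxcl9 at 1.93 ± 0.21 and Cxcl10 at 1.33 ± 0.19 among them. Between the groups with ABT-317, 9 of 14 were higher with CPI and 0 lower, beside 1.61% of all genes called, led by Cxcl9 (1.94 ± 0.17), Gbp2 (1.42 ± 0.17), and H2-Ab1 (1.41 ± 0.17).

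**Figure D4:**
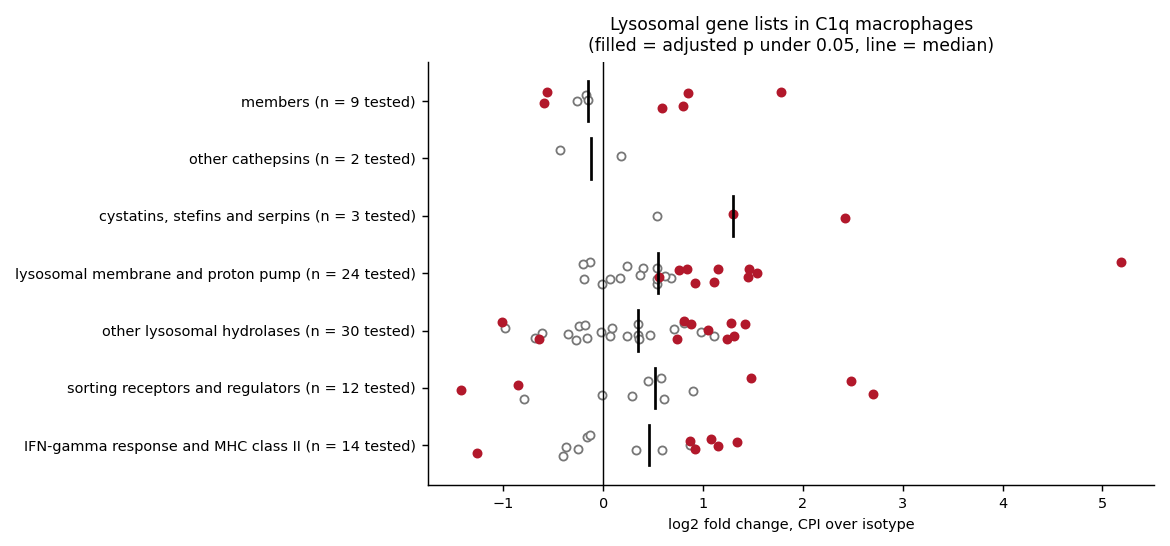
Log2 fold change of each tested gene in C1q macrophages, CPI over isotype, for the members and 6 lists, with filled points for an adjusted p under 0.05 and a line at each list's median. The membrane and proton pump list has its median at 0.55 with Atp6v0d2 at 5.19. Of the members, 4 were called as rises and 2 as falls, beside 14.8% of all genes called. Lgmn (−0.26), Ctsz (−0.17), and Ctsh (−0.15) were not called.

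Outside C1q macrophages the treatments could be tested only in the unnamed Ptprc-negative class, where the test was added after the data were seen. In CPI against isotype 6.75% of 15293 genes were called and, of the 10 members, only Cst3, at 507 and 464 against 673 and 722 CPM (−0.67 ± 0.11, adjusted p = 0.0109). Cst3 was not called without CPI reaction 1 (−0.73) or CPI reaction 2 (−0.64). Ctsd was at 115 and 97.9 CPM against 136 and 146 and was not called (−0.55 ± 0.14, adjusted p = 0.0544). For CPI + ABT-317 against CPI, 2.42% of genes and 0 members were called by edgeR, with 4 members at an unadjusted p under 0.05 and 2 called by DESeq2. The shares of all genes at that unadjusted p and by DESeq2 are not reported here, so nothing is read from these counts. With reaction as a block 18.9% and 12.5% of genes and 5 and 4 members were called in these contrasts. The added members were Ctsd (−0.53), Ctsh (0.60), Ctsk (4.27), and Ctsl (−0.32) for CPI against isotype, and all 4 for CPI + ABT-317 against CPI, namely Cst3 (0.49), Ctsh (−0.54), Ctsk (−5.12), and Ctsl (0.42). The CPI sums hold 83 and 45 cells against 3702 and 3248 in isotype. Ctsk was at 2.9 and 0.327 CPM in isotype, 13.1 and 51.1 in CPI (19 and 59 UMIs), 0.72 and 0.751 in CPI + ABT-317, and 3.82 and 0.358 in isotype + ABT-317. The CPI sums of Ctsk were far apart, and so were those of both groups without CPI.

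Between isotype + ABT-317 and isotype, 0.0% of genes and 0 members were called in the unnamed class by edgeR, with 680 genes and 0 members at an unadjusted p under 0.05 and 10 genes and 0 members called by DESeq2. With reaction as a block 19.6% of genes and 5 members were called, all lower with ABT-317: Ctsc (−0.66), Ctss (−0.62), Ctsd (−0.16), Lgmn (−0.14), and Ctsb (−0.10). In this class Ctsc was 1.65 and 1.47 times, and Ctss 1.47 and 1.46 times, the carried level. Between CPI + ABT-317 and isotype + ABT-317, 0.32% of genes and 0 members were called by edgeR, with 1 member at an unadjusted p under 0.05 and 0 called by DESeq2. For this contrast too the all-gene shares by those measures are not reported here. The block gave 23.0% of genes and 3 members, Ctsd (−0.38), Ctsl (0.23), and Lgmn (−0.20).

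Treatment values of other classes are given without a test, because some sums had fewer than 20 cells. Arg1 myeloid cells read 484 and 460 CPM of Ctsd in isotype (75 and 65 cells), 2381 and 2642 in CPI (33 and 25 cells), and 369 and 863 in CPI + ABT-317 (27 and 34 cells). Their Ctss was at 866 and 989 CPM in isotype, 2197 and 3420 in CPI, and 693 and 1379 in CPI + ABT-317. For both genes the CPI values stood above those of these 2 groups.

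Fibroblasts came mostly from CPI, with 856 and 655 cells against 40 and 14 in isotype. Their Ctsk was at 1535 and 1715 CPM in CPI and 395 and 167 in isotype, and their Ctsh at 479 and 572 against 170 and 55.7. Ctsd in fibroblasts read 306 and 291 CPM in CPI and 411 and 432 in isotype, the reverse of its order in C1q macrophages. T cells with 1 hashtag came almost entirely from CPI, with no more than 16 in any other sum, and allowed no comparison.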

How the data were processed

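Of 5 samples, the 2 MC38 reactions were used, and the 3 lymph node reactions were not used here. The deposited values are UMI counts per gene and barcode, made by the authors with Cell Ranger on GRCm38, with Cell Ranger 3.1.0 in the submitters' processing notes and 8.0.1 in the matrix header. Barcodes with at least 200 genes and under 10% mitochondrial UMIs were kept. The 2500-gene ceiling of the study was an alternative. A class needed at least 2 markers of its list and a minimum summed share. No doublet caller was run. Treatment needed exactly 1 of 4 hashtags, found by a 2-component fit of the antibody counts. UMIs were summed by class or treatment within a reaction where every sum had 20 cells (10 for the added subset without Mrc1 or Pf4 UMIs) and tested with edgeR 4.0.16 (R 4.3.3, TMM, filterByExpr, quasi-likelihood, Benjamini-Hochberg over all genes). SE was taken from the log2 change and its F statistic, and intervals cover counting error only. The script was tested on simulated data. Python 3.11.15 and DESeq2 1.42.0 (an alternative) were also used.

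A reaction number marks a shared 10x reaction, so sums of 1 number are paired. Their reaction differences correlated at 0.15 to 0.61 between treatments of C1q macrophages over 2821 genes and at 0.54 to 0.97 in the unnamed class over 2640 genes, and blocked values are printed where they change a member's call in a contrast reported. The members and lists were chosen with earlier results of these data known. All members are named, with the 3 genes most like each. Genes of the lists were named from the up to 3 called with the largest change per list and treatment contrast, and C1qa, Mrc1, and Pf4 were singled out after their values were seen. Genes were matched to GENCODE M21 by Ensembl ID, and promoters to RefSeq by symbol. Some genes of the lists are not reported here.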

Additional observations from a re-analysis of the deposited data

Results flagged for a closer look

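The effect of ABT-317 on 3 members in C1q macrophages differed between the CPI and isotype groups, by an interaction term added after the data were seen. It came from edgeR's quasi-likelihood fit of 8 sums, and 5.01% of 8206 genes were called. The other members tested were not called. The CPI sums held 114 and 100 cells. A UMI of Mrc1 or Pf4 was in 87.7% and 78.0% of CPI cells and in 61.8% and 60.3% of isotype cells. Lyz2 was lower in the same term (−1.51 ± 0.28). The part of these in the 3 results was not tested. For Ctsd the difference between the effects was −1.87 ± 0.22 (log2, SE, adjusted p = 0.000102), with CPI + ABT-317 below CPI in both reactions and isotype + ABT-317 above isotype in both. For Ctsb it was −0.93 ± 0.23 (adjusted p = 0.0255), which was not called without CPI + ABT-317 reaction 1 (−0.73), CPI reaction 2 (−0.76), isotype + ABT-317 reaction 1 (−0.98) or reaction 2 (−0.79), or isotype reaction 1 (−0.78), by the leading hashtag (−0.80), or without a UMI of Mrc1 or Pf4 (−0.68). For Ctsc it was 0.98 ± 0.25 (adjusted p = 0.0318), which was not called without CPI + ABT-317 reaction 2 (0.82), CPI reaction 1 (0.82) or reaction 2 (1.19), isotype + ABT-317 reaction 1 (0.86), or isotype reaction 2 (0.90), or by the leading hashtag (0.92).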

How the results depend on the processing

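Over the 5 planned class contrasts 25 member calls were made, 16 to 29 with 1 sum left out, 37 with classes by profile, 33 with no low-count filter, 29 with reaction as a replicate block, 24 by DESeq2, 21 with upper-quartile scaling, and 19 with fewer than 2500 genes. In the 4 of these contrasts that could be run with only 1 hashtag, 22 member calls were made against 24, and 6601 calls over all genes against 7362. Over all genes the 5 contrasts gave 9650 calls with the block and 10691 by DESeq2. They gave 7425 with upper-quartile scaling and 5784 with fewer than 2500 genes. All genes gave 7527 calls, 4865 to 9359 with 1 sum left out, 25664 with classes by nearest profile, and 11612 with no low-count filter. Over the 4 treatment contrasts of C1q macrophages 10 member calls were made, 19 with reaction as a replicate block, 6 with the leading hashtag rule, 6 without macrophages holding Mrc1 or Pf4 UMIs, and 5 to 10 with 1 sum left out. All genes gave 2191 calls there, 3690 with the block, 1695 with the leading hashtag rule, 347 without Mrc1 or Pf4 UMIs, and 970 to 2289 with 1 sum left out. Of 120 member levels by class, 53 moved by more than the spread between reactions with classes by profile and 48 with fewer than 2500 genes, as did 32 of 100 with only 1 hashtag. The class with the highest level was kept for 7 to 8 of 10 members under each alternative for levels, and changed under at least 1 of them for Ctsc, Ctsd, Ctsh, Ctsk, Ctsl, Lgmn, and Cst3.

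The Cst3 difference between C1q macrophages and Ly6c2 monocytes, −0.08, was 3.60 with classes by profile, which put 1840 barcodes in the monocyte class against 105. The Hexa interaction, −0.88, was 0.15 without Mrc1 or Pf4 UMIs. The cause was not tested for either. Between CPI and isotype 694 genes were higher and 523 lower in CPI, 624 and 721 with upper-quartile scaling, and 559 and 924 with no low-count filter. Against Ly6c2 monocytes the share higher in C1q macrophages was 41.5%, 20.0% by DESeq2, and 62.3% with no low-count filter, and for cDC2s against C1q macrophages it was 49.4%, and 74.1% by DESeq2. Sums of fewer than 20 cells left the treatment contrasts of Arg1 myeloid cells, Ly6c2 monocytes, and fibroblasts not run, and the mreg DC contrast not run with only 1 hashtag. The CPI sums of C1q macrophages were the shallowest, and every contrast with CPI rests on them.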

Other observations

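The Ctsk UMIs of the neutrophil class in reaction 2, 104 in all, lay in a single isotype barcode with 4829 UMIs, singled out after its values were seen. It also held 145 UMIs of Acp5, which encodes tartrate-resistant acid phosphatase, 58 of the gelatinase gene Mmp9, 9 of Atp6v0d2, 2 of the fusion gene Dcstamp, 1 of Ocstamp, and 0 of the calcitonin receptor gene Calcr, which are genes known from osteoclasts. Mmp9 is also a marker used to define the neutrophil class. The barcode held 0 UMIs of the neutrophil markers S100a8, S100a9, Csf3r, and Cxcr2, of C1qa, and of Col1a1. Its UMIs of the remaining neutrophil markers, Retnlg and G0s2, are not reported here.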
